A study of Homo sapiens with 51 samples.

Results

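The 37 genes of the human mitochondrial genome were followed in fractionated K562 cells, an established line of chronic myelogenous leukaemia. Members were all genes whose symbol starts with MT-, 37 of the 60664 genes counted, and comprised 13 mRNAs, 2 ribosomal RNAs (rRNAs) and 22 transfer RNAs (tRNAs). RNA was sequenced strand by strand after rRNA depletion in 51 libraries of 13 genotypes, with 2 labelled fractions (cytoplasmic and nuclear) and 2 replicates each, although cytoplasmic-labelled replicate 2 of R376C was not analysed here. R376C nuclear-labelled replicate 2, whose content stood apart from all other nuclear-labelled libraries, was left out, so 50 libraries were used, 25 of each label.

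The guide set held 16 libraries of CRISPR interference (CRISPRi) cells, in which a guide RNA brings a repressor to a promoter: sgGal4, the control, named after a yeast gene, and sgDDX3, sgCNOT1 and sgNUP160. The transgene set held 35 libraries: uninfected cells; cells with sgDDX3 and no DDX3 transgene (called noTG); DDX3 WT, in which a lentiviral wild-type DDX3 was overexpressed while endogenous DDX3 was knocked down; and the mutants DDX3-G325E, DDX3-R326H, DDX3-R351W, DDX3-R376C, DDX3 R534S and DDX3 T532M, made the same way. All cells of both sets except the uninfected ones thus carried a guide, and the labels do not say with which set the uninfected cells were grown, nor whether replicates came from separate cultures, so the p-values cover no more than the spread between these libraries, which may be technical. DDX3 is an RNA helicase, NUP160 is a component of the nuclear pore, and CNOT1 holds together the CCR4-NOT complex that shortens poly(A) tails. In the targeted cells DDX3X had 59.3 ± 0.693 CPM with sgDDX3 against 244.9 ± 16.9 with sgGal4 in cytoplasmic-labelled libraries (mean ± SD, n = 2), CNOT1 24.0 ± 7.27 against 587 ± 18.2 and NUP160 15.8 ± 2.83 against 180.8 ± 7.09, where CPM is the count of a gene scaled to the total gene count of its library. The fall was smaller in noTG, with DDX3X at 130.2 ± 11.6 CPM against 289.9 ± 0.790 in uninfected cells. In nuclear-labelled libraries these were 146.8 ± 0.685 and 271.9 ± 13.3 CPM. DDX3X also differed among the cells with a transgene. Its cytoplasmic-labelled group means ran from 224.1 CPM in R351W to 428.1 CPM in R376C (1 library), with 315.3 CPM in WT.

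Libraries held 2354961 to 21365002 gene counts, of which the members took 1.49% to 8.88% (median 4.98%) in cytoplasmic-labelled and 2.41% to 13.1% (median 5.21%) in nuclear-labelled libraries. The content of the fractions ran against their names. MALAT1, a nuclear-retained RNA, had 20729 to 34091 CPM in cytoplasmic-labelled and 1665 to 3549 CPM in nuclear-labelled libraries, so fractions are named here only as labelled. In cytoplasmic-labelled libraries the 8 markers of K562 cells ranged widely, with TFRC at 1043 to 2002 CPM and GATA1 at 99.3 to 177 CPM but the fetal globin genes HBG1 and HBG2 at 0.571 to 9.62 and 0.165 to 2.87 CPM. Of 8 markers of other cell types, EPCAM had 12.5 to 37.8 CPM and CD3D up to 6.93 CPM there, the other 6 did not exceed 6.24 CPM, and KRT5 was at 0 in all 50 libraries.

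Mitochondrial DNA is a small circle that both strands transcribe almost completely. One strand gives a long transcript with 12 mRNAs, both rRNAs and most tRNAs; the other gives MT-ND6, the remaining tRNAs and long stretches antisense to the first, which are normally degraded. The tRNAs lie between the other genes, and their excision by RNase P and ELAC2 frees the mRNAs and rRNAs. The mRNAs encode subunits of respiratory complexes I (MT-ND genes), III (MT-CYB) and IV (MT-CO genes) and of ATP synthase (MT-ATP genes). Following common usage, the 28 genes transcribed from the heavy strand (12 mRNAs, 2 rRNAs, 14 tRNAs) are called heavy-strand genes and the other 9 (MT-ND6 and 8 tRNAs) light-strand genes.

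The layout that makes strand matter can be seen where the genes for 2 subunits of complex I meet tail to tail. MT-ND5 (chrM:12337-14148, plus strand) and MT-ND6 (chrM:14149-14673, minus strand) have 0 bases between their ends. Their last 60 bases, written 5′ to 3′ on the strand of each gene with the last annotated codon in capitals, show the base bias of the strands. Sequences and positions are those of GENCODE release 29 on GRCh38, the build named for the alignments.
end of MT-ND5: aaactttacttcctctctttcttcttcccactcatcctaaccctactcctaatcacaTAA
end of MT-ND6: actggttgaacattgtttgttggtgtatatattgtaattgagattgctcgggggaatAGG
MT-ND6 is 35.6% G and 7.05% C over its length. The 12 heavy-strand mRNAs are 6.28% to 16.2% G and 29.5% to 36.0% C, so the 2 groups do not overlap in either base.

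The same contrast runs through the tRNAs, with a median of 28% G in the 8 light-strand and 15.4% in the 14 heavy-strand tRNAs. To show the tRNAs of both strands, 3 light-strand and 3 heavy-strand tRNAs that recur in the comparisons between fractions and genotypes are given as DNA, 5′ to 3′ on the gene's strand, with the anticodon in capitals. MT-TP (proline, chrM:15956-16023), MT-TQ (glutamine, chrM:4329-4400) and MT-TS1 (serine, chrM:7446-7514) are light-strand genes, and MT-TT (threonine, chrM:15888-15953), MT-TH (histidine, chrM:12138-12206) and MT-TV (valine, chrM:1602-1670, between both rRNAs) are heavy-strand genes.
MT-TP: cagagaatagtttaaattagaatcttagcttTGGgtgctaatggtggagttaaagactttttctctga
MT-TQ: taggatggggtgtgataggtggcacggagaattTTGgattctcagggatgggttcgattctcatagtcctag
MT-TS1: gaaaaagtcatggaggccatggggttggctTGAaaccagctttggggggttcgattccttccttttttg
MT-TT: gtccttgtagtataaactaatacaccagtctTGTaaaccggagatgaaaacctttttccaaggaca
MT-TH: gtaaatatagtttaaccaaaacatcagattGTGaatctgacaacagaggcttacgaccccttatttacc
MT-TV: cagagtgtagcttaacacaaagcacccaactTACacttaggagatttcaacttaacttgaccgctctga

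The mRNAs made up most of the mitochondrial counts in the guide set, and whether the 12 heavy-strand mRNAs together were higher in one labelled fraction or the other differed among the genotypes. Their summed level was 14533 to 71739 CPM (median 46312) in cytoplasmic-labelled and 19230 to 63857 CPM (median 35241) in nuclear-labelled libraries, so the pooled ranges overlapped. Across the 13 genotypes the nuclear-labelled group mean in CPM was 0.382 times (R376C) to 2.45 times (sgNUP160) the cytoplasmic-labelled one. It was higher in 3 (sgNUP160, uninfected and T532M) and lower in the other 10. The fits of both fractions together also scale libraries (TMM), dividing by 1.20 and 1.19 in cytoplasmic-labelled and 0.846 and 0.848 in nuclear-labelled R534S. The R534S ratio of 0.962 would turn upward on that scale, so the split of 3 and 10 holds for CPM only. In WT the fractions did not overlap, with 52457 and 54617 CPM in the cytoplasmic-labelled and 20476 and 21597 CPM in the nuclear-labelled libraries. A fraction that holds fewer mitochondria and one with less RNA per mitochondrion cannot be told apart in these data.

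Per kilobase of gene, the subunits of complex IV led among the mRNAs. In cytoplasmic-labelled libraries the median level per kilobase was 7318 CPM for MT-CO1, 6212 for MT-CO3 and 5375 for MT-CO2. The complex I mRNA MT-ND4 (4263), the ATP synthase mRNA MT-ATP6 (4070) and MT-ND1 (4066) followed closely together. MT-CYB of complex III had 3252 CPM per kilobase, MT-ND6 2633, MT-ND2 2444, MT-ND5 2009, MT-ND4L 1934, MT-ATP8 1399 and MT-ND3 521. In nuclear-labelled libraries MT-CO3 (6216), MT-CO2 (5661) and MT-CO1 (5415) again stood first on this scale, MT-ND4 (4163) and MT-ATP6 (3855) next, and MT-ND3 had 755 CPM per kilobase. The last place differed, as MT-ND6 had only 177 CPM per kilobase there. Values of overlapping genes are uncertain: MT-ATP8 and MT-ATP6 share 46 bases and MT-ND4L and MT-ND4 share 7, and a read that falls on both is counted for neither. MT-ND1, MT-ND2, the MT-CO and the MT-ATP genes also have nuclear copies that can take reads, with 198 to 905 CPM on MTATP6P1 and at most 67.8 CPM on any of the other 6 copies over the libraries used.

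MT-ND6, the light-strand mRNA, separated the fractions completely. It had 328 to 2851 CPM (median 1382) in the 25 cytoplasmic-labelled and 38.5 to 206 CPM (median 93.2) in the 25 nuclear-labelled libraries. No library of one label reached the range of the other. Its level was 6.98 to 26.2 times higher in the cytoplasmic-labelled group mean over the 13 genotypes (median 13.5). As a share of all mitochondrial mRNA counts, MT-ND6 took 1.29% to 7.54% in cytoplasmic-labelled and 0.147% to 0.453% in nuclear-labelled libraries.

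The rRNAs MT-RNR1 (12S) and MT-RNR2 (16S), which form the core of mitochondrial ribosomes, differed in level between the sets. Their sum was 26.2 to 499 CPM in cytoplasmic-labelled and 32.0 to 185 CPM in nuclear-labelled libraries of the guide set. In the transgene set it was 314 to 22780 CPM and 8015 to 75716 CPM. The cytoplasmic-labelled ranges overlapped, as 1 sgNUP160 library (499 CPM) lay above both G325E libraries (422 and 314 CPM). The nuclear-labelled ranges of the sets did not overlap, and rRNA was 0.0987% to 0.442% of nuclear-labelled mitochondrial counts in the guide set and 27.0% to 58.7% in the transgene set. All libraries were depleted of rRNA with a kit before sequencing, so these levels are what the depletion left, and set and depletion cannot be told apart.

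The tRNAs, which carry the amino acids for mitochondrial translation, gave few counts. They are short, and a read that also covers a neighbour on the same strand is not assigned. All 22 together had 46.2 to 223 CPM in cytoplasmic-labelled and 18.4 to 77.2 CPM in nuclear-labelled libraries. MT-TN, MT-TK, MT-TG and MT-TR had 0 counts in all 50 libraries. The 8 light-strand tRNAs took 42.8% to 73.2% of tRNA counts in cytoplasmic-labelled and 18.7% to 39.6% in nuclear-labelled libraries, again without overlap.

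**Figure D1:**
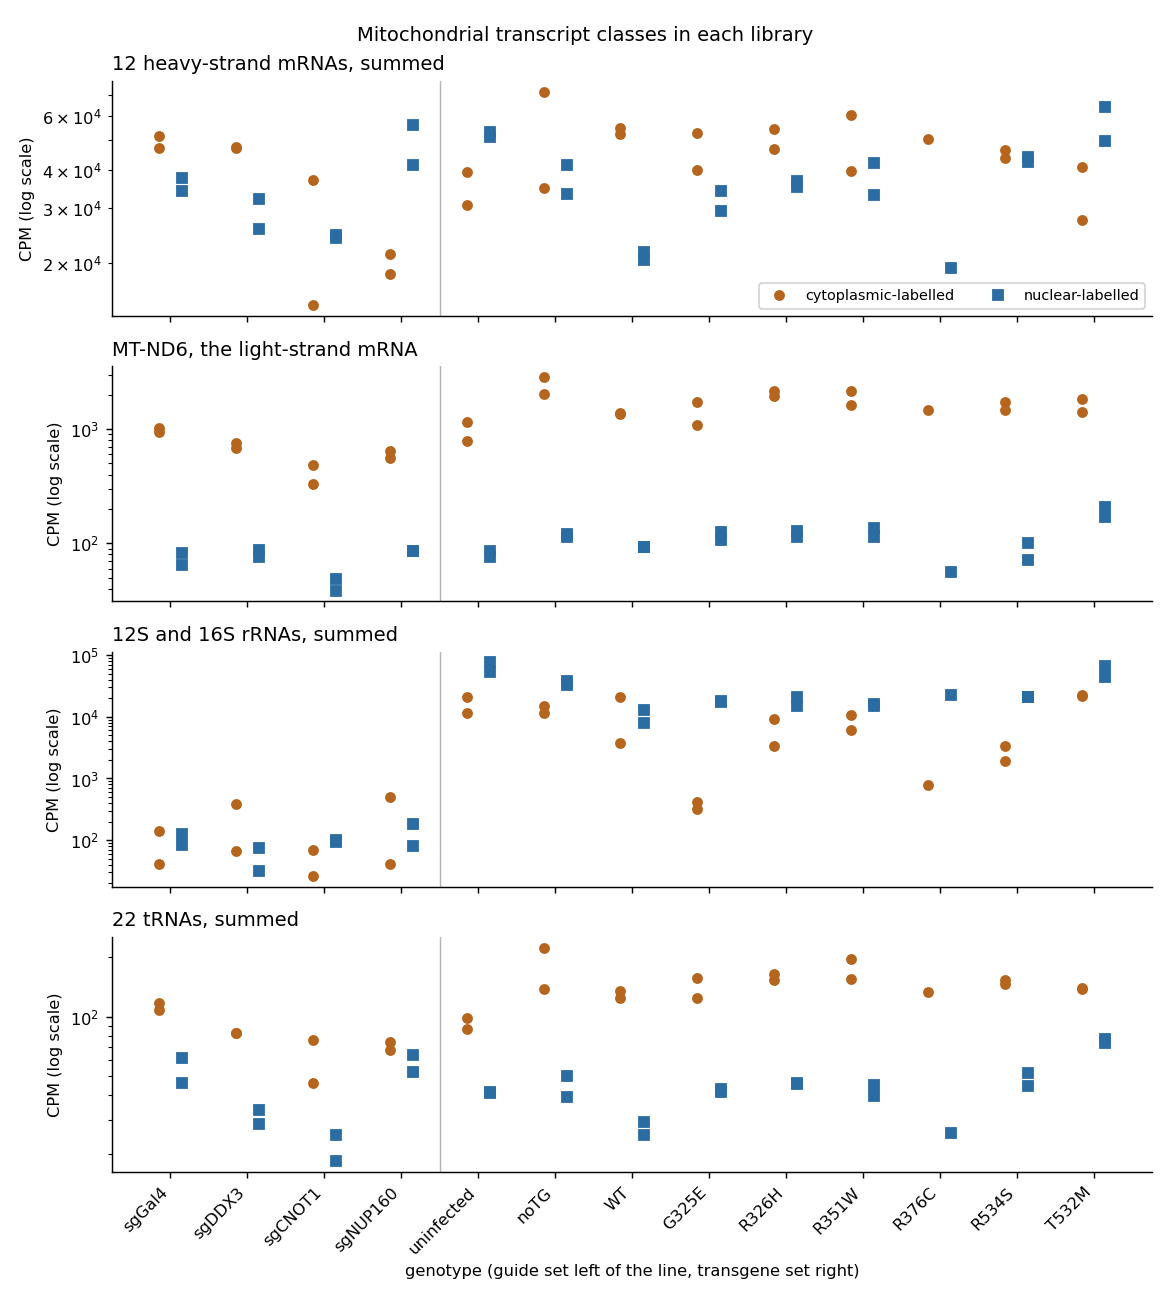
Level of 4 transcript classes (CPM, log scale) in each of 50 libraries, by genotype, with circles for cytoplasmic-labelled and squares for nuclear-labelled libraries. MT-ND6 separates the labels in every genotype, rRNA separates the sets in nuclear-labelled libraries but not in cytoplasmic-labelled ones, and the summed heavy-strand mRNAs overlap between labels and sets.

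Antisense reads were read from the opposite strand of the same files. Over the 12 heavy-strand mRNAs, 13% to 34.3% of reads of both strands were antisense in cytoplasmic-labelled libraries (median 21.3%) and 2.05% to 4.56% in nuclear-labelled ones (median 3.62%), with no overlap. For comparison, the median nuclear-encoded protein-coding gene with at least 1000 reads had 0.442% to 0.808% antisense reads in cytoplasmic-labelled and 0.204% to 0.534% in nuclear-labelled libraries. The lowest mitochondrial share lay above the highest of these medians in both fractions. However, the mitochondrial share pools the reads of 12 genes, whereas the medians are per gene. With reads pooled over all genes, up to 11.6% were antisense in cytoplasmic-labelled libraries, below the lowest mitochondrial share there. In nuclear-labelled libraries the pooled share was 5.3% or more, above the highest mitochondrial share there.

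Among the mRNAs in cytoplasmic-labelled libraries, the antisense share was highest over MT-ND5 and MT-ND3. Some light-strand tRNA genes, whose antisense strand is the heavy-strand transcript, had higher shares, with medians of 97.1% for MT-TY, 96.9% for MT-TS1 and 77.9% for MT-TQ. MT-ND5, the tail-to-tail neighbour of MT-ND6 whose end is shown above, had a median of 5573 CPM antisense against 3640 CPM sense in cytoplasmic-labelled libraries, so 48.1% to 73.3% of its reads were antisense. In nuclear-labelled libraries the antisense level of MT-ND5 was 508 CPM and its share 13.6% to 31.8%. Among the heavy-strand mRNAs, MT-ND3 (51.9% to 79.5%), MT-ND4L (22.1% to 53.6%) and MT-ND4 (17.8% to 46.0%) followed in cytoplasmic-labelled libraries. By level the order differed, as antisense MT-ND4 had a median of 2623 CPM and antisense MT-ND3 290 CPM there. MT-CO1 had the lowest median share there (1.92% to 6.39%), and MT-CO2 in nuclear-labelled libraries (0.458% to 1.44%). By share, reads antisense to MT-ND6, which belong to the heavy-strand transcript, went the other way. They were 23.7% to 64.5% of its reads in cytoplasmic-labelled and 78.0% to 92.5% in nuclear-labelled libraries. Their median level was nevertheless lower in nuclear-labelled libraries, at 629 CPM against 1059 CPM in cytoplasmic-labelled ones.

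**Figure D2:**
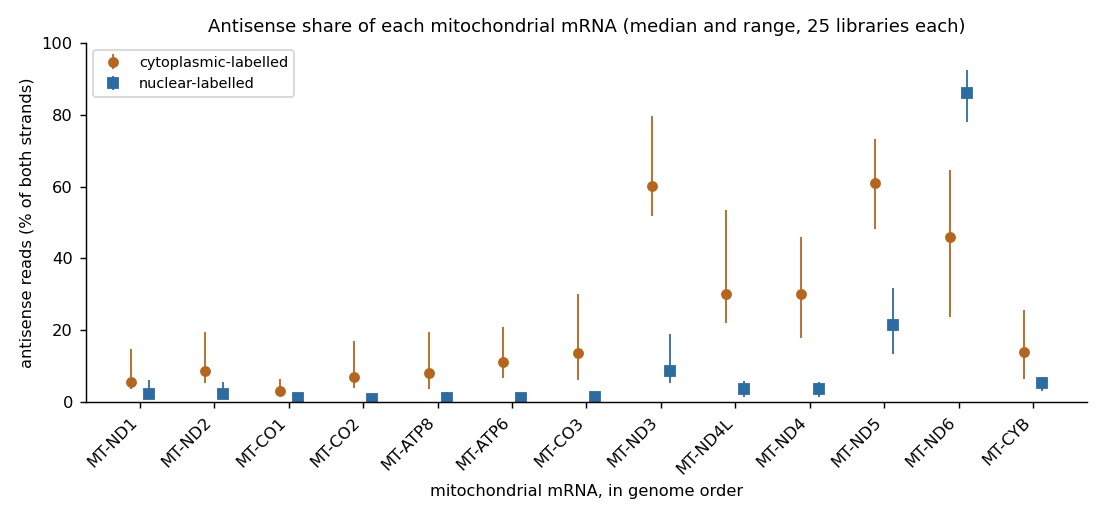
Antisense reads as a percentage of reads of both strands for each of 13 mRNAs in genome order; points are medians and lines the lowest to highest of 25 libraries of each label. MT-ND3 and MT-ND5 have the highest shares in cytoplasmic-labelled libraries, and MT-ND6 is the only mRNA with a higher share in nuclear-labelled libraries.

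The sgGal4 control cells were used to test the difference between labelled fractions within the guide set (n = 2 each). Sense reads of MT-ND6 had 949 and 1029 CPM in the cytoplasmic-labelled and 82.0 and 64.9 CPM in the nuclear-labelled libraries. The log2 change of nuclear-labelled over cytoplasmic-labelled level was -3.29 ± 0.20 (± is the standard error throughout; adjusted p = 5.6e-37), where a call means an adjusted p under 0.05 over all genes tested. The mean CPM alone give -3.75 for MT-ND6, because the fits scale the libraries of the 2 fractions differently. Other changes between fractions from the fits likewise include this scaling, which the CPM beside them do not. All 6 light-strand tRNAs tested were lower in the nuclear-labelled libraries, among them MT-TS1 (-3.21 ± 0.52) and MT-TQ (-2.05 ± 0.35). None of the 12 heavy-strand mRNAs passed the test, with changes from -0.74 to 0.81, 0 of them at an unadjusted p under 0.05. The heavy-strand tRNAs MT-TH (3.39 ± 0.77), MT-TV (3.14 ± 0.60), MT-TM (methionine, 2.09 ± 0.57) and MT-TT (0.95 ± 0.40) were higher, and MT-TW (tryptophan) was lower (-1.24 ± 0.29). MT-TD (aspartate) had 26 and 16 counts in the cytoplasmic-labelled and 0 in both nuclear-labelled libraries, so no fold change is given. In all, 13 of 30 members tested were called, 4 higher and 9 lower, beside 64.7% of all genes (30.9% higher, 33.8% lower).

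In uninfected cells the light-strand genes behaved alike and the heavy-strand mRNAs did not. MT-ND6 had 780 and 1156 CPM in the cytoplasmic-labelled and 84.9 and 75.3 CPM in the nuclear-labelled libraries (-3.00 ± 0.27, adjusted p = 1.4e-08). All 6 light-strand tRNAs were again lower, with MT-TE (glutamate, -2.72 ± 0.54) first. Of the heavy-strand mRNAs, 10 of 12 were higher in the nuclear-labelled libraries, up to MT-CO2 (1.66 ± 0.32), MT-ND4 (1.51 ± 0.31) and MT-ND3 (1.46 ± 0.28). The other 2, MT-ATP8 and MT-ND5, did not pass. Both rRNAs were higher (MT-RNR1 3.41 ± 0.68, MT-RNR2 2.13 ± 0.62), and so were MT-TH (4.28 ± 0.75), MT-TV (1.57 ± 0.58) and MT-TT (1.11 ± 0.32), while MT-TD fell by 2.59 (SE 0.87). The calls covered 24 of 30 members, 15 higher and 9 lower, beside 73.9% of all genes (33% higher, 40.9% lower). Whether the fraction difference itself differed between sgGal4 and uninfected cells was not tested, as they were fitted in separate sets.

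Antisense reads were lower in the nuclear-labelled libraries over all 12 heavy-strand mRNAs in both control lines. Antisense MT-ND5 had 4332 and 4370 CPM in the cytoplasmic-labelled and 511 and 524 CPM in the nuclear-labelled libraries of sgGal4. In uninfected cells it had 3671 and 4862 against 447 and 425 CPM. The change was -2.65 ± 0.18 and -2.69 ± 0.15. Changes over the 12 mRNAs ran from -3.35 to -0.56 in sgGal4 (median -2.69) and from -3.21 to -0.63 in uninfected cells (median -2.67), with MT-ND3, MT-ATP6 and MT-ND4 lowest in both. The median antisense change of all genes was itself -1.31 in sgGal4 and -2.11 in uninfected cells. Counted over all members, 19 of 23 were called in sgGal4, all lower, beside 55% of all genes (44.4% lower). In uninfected cells 20 of 25 were called, 16 of them lower, beside 67.1% of all genes (57.1% lower, 9.98% higher). The 4 that were higher in uninfected cells were MT-RNR1 (3.06 ± 0.45), MT-TP (1.78 ± 0.31), MT-TY (tyrosine, 1.02 ± 0.26) and MT-TQ (0.42 ± 0.14). Antisense MT-TM was at 0 in both nuclear-labelled libraries of uninfected cells. Antisense MT-ND6 was lower in sgGal4 (-0.57 ± 0.18, adjusted p = 0.0033) and did not pass in uninfected cells (0.36 ± 0.25, adjusted p = 0.22).

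**Figure D3:**
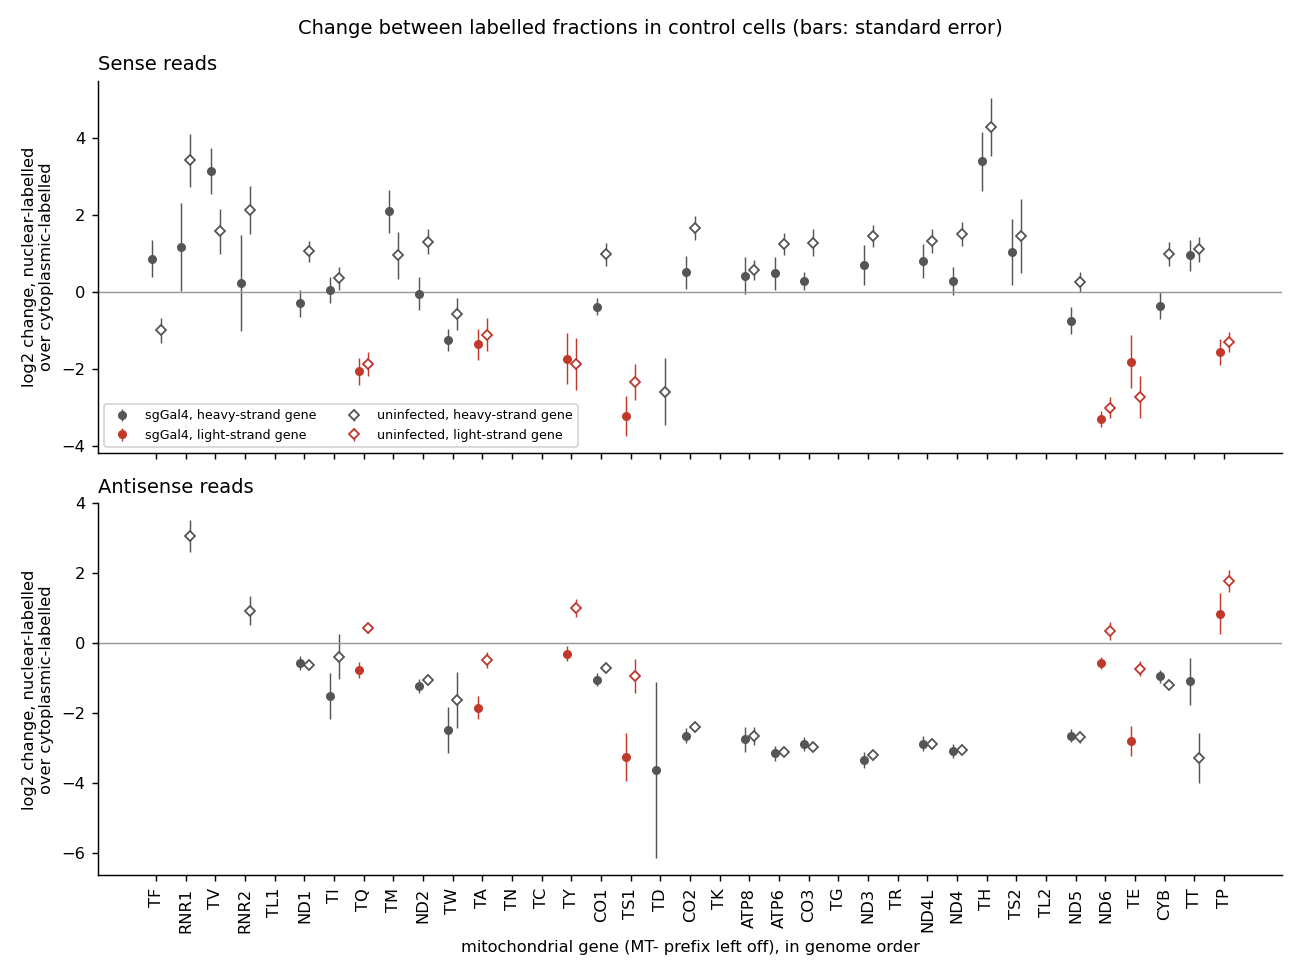
Log2 change of nuclear-labelled over cytoplasmic-labelled level for each gene in genome order, for sense reads (top) and antisense reads (bottom), in sgGal4 (filled) and uninfected cells (open), n = 2 libraries per fraction; bars are standard errors, and genes untested or at 0 in a group are not drawn. Sense reads of light-strand genes lie below 0 in both lines, and antisense reads of the heavy-strand mRNAs lie below 0 throughout.

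With sgNUP160 all 13 mitochondrial mRNAs were lower than with sgGal4 in the cytoplasmic-labelled libraries. The 12 heavy-strand mRNAs summed to 21286 and 18349 CPM with sgNUP160 and to 51413 and 47017 CPM with sgGal4, and the groups did not overlap. Each of the 12 fell, from -1.65 ± 0.31 for MT-CO3 (adjusted p = 0.0035) to -1.24 ± 0.31 for MT-ND5, as did MT-ND6 (-0.95 ± 0.20, adjusted p = 0.0067). MT-TW (-1.87 ± 0.43) and MT-TI (isoleucine, -1.71 ± 0.43) were the other calls, 15 of 27 members tested, all lower, beside 15.9% of all genes (9.81% lower). Leaving out sgNUP160 cytoplasmic-labelled replicate 2 left 0 calls, leaving out its replicate 1 left 3 and leaving out sgGal4 replicate 1 left 7. These sgNUP160 libraries were shallow, with 3107189 and 2354961 gene counts against 8458728 and 5966388 with sgGal4. Of their uniquely mapped reads 66.4% and 69.2% lay outside genes on the counted strand, against 51.9% and 55.4% with sgGal4. The part of this difference in the lower mRNA levels was not tested.

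In the nuclear-labelled libraries the mRNAs did not follow. The 12 heavy-strand mRNAs summed to 41452 and 55804 CPM with sgNUP160 against 37676 and 34097 CPM with sgGal4. All 12 had positive changes (0.15 to 0.62), of which MT-CO1 passed (0.56 ± 0.07, adjusted p = 5.0e-07), 1 call in 28 members beside 14.6% of all genes (8.06% higher). There were 2 calls without sgNUP160 nuclear-labelled replicate 2 and 6 without replicate 1. The change in the nuclear-over-cytoplasmic ratio was called for 8 of 30 members, all upward, beside 5.67% of all genes (5.28% upward). These were MT-CYB (2.26 ± 0.51), MT-CO1 (2.21 ± 0.31), MT-CO3 (2.12 ± 0.33), MT-ND1, MT-ND4, MT-ND6 (1.25 ± 0.26), MT-TW (2.45 ± 0.44) and MT-TI (1.64 ± 0.54). That count was 3 without sgGal4 nuclear-labelled replicate 2 or sgNUP160 nuclear-labelled replicate 1, 4 without sgNUP160 nuclear-labelled replicate 2, and 13 without sgGal4 cytoplasmic-labelled replicate 2 or sgNUP160 cytoplasmic-labelled replicate 1.

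With sgCNOT1 all members called against sgGal4 were lower, in both labelled fractions. In the cytoplasmic-labelled libraries the replicates themselves differed, with 37190 and 14533 CPM over the heavy-strand mRNAs and 484 and 328 CPM for MT-ND6 (-1.21 ± 0.20, adjusted p = 0.00068). MT-ND1 (-1.36 ± 0.31), MT-CYB (-1.36 ± 0.33), MT-TD (-2.40 ± 0.69), MT-TI (-1.87 ± 0.39) and MT-TW (-1.07 ± 0.36) were among 9 of 27 members called, all lower, beside 21.8% of all genes (8.29% lower). Leaving out sgCNOT1 cytoplasmic-labelled replicate 1 gave 20 calls, and 3 or 4 were made without sgGal4 replicate 1 or 2. The sgCNOT1 replicates also differed in uniquely mapped reads outside genes on the counted strand (50.4% and 60.5%).

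In the nuclear-labelled libraries the sgCNOT1 replicates were close, with 23966 and 24584 CPM over the heavy-strand mRNAs. All 8 heavy-strand tRNAs tested fell. MT-TF (phenylalanine), the first gene of the heavy-strand transcript, had 0.374 and 0.0901 CPM with sgCNOT1 and 4.03 and 3.77 CPM with sgGal4 (-3.83 ± 0.58, adjusted p = 1.9e-06). MT-TH had 0.187 and 0.630 CPM against 3.48 and 2.96 CPM (-3.22 ± 0.57, adjusted p = 2.1e-05). MT-TS2 (the other serine tRNA) changed by -3.27 ± 0.92 and MT-TM by -3.15 ± 0.48. These rest on low counts: MT-TF had 8 and 1 counts with sgCNOT1. Smaller falls were called for MT-CYB (-1.10 ± 0.21), MT-ND1 (-1.08 ± 0.26), MT-CO3 (-0.91 ± 0.14), MT-ND6 (-0.79 ± 0.13), MT-ND2, MT-CO1 and the light-strand MT-TQ (-1.09 ± 0.44), which makes 15 of 28 members, all lower, beside 49% of all genes (21.3% lower). Without sgGal4 nuclear-labelled replicate 1 the count was 7, and without sgCNOT1 nuclear-labelled replicate 1 it was 9.

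The ratio of fractions changed with sgCNOT1 for 2 of 30 members, beside 5.7% of all genes (3.36% upward, 2.34% downward). MT-TF fell by 3.30 (SE 0.81). The other was MT-TD, which had 0 counts in both sgGal4 nuclear-labelled libraries and therefore gets no fold change. Leaving out sgCNOT1 cytoplasmic-labelled replicate 1 raised this to 16, and it was 1 without sgGal4 cytoplasmic-labelled replicate 2, either sgGal4 nuclear-labelled library or sgCNOT1 nuclear-labelled replicate 2.

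Knockdown of DDX3 left the mRNAs and rRNAs without a call. In the cytoplasmic-labelled libraries the heavy-strand mRNAs summed to 47097 and 47531 CPM, beside 51413 and 47017 CPM with sgGal4, and 0 of 27 members were called by edgeR, with 5 at an unadjusted p under 0.05, 0 by DESeq2 and 3 without the low-count filter, beside 3.05% of all genes. MT-ND6 had 679 and 754 CPM against 949 and 1029 CPM (-0.55 ± 0.20, adjusted p = 0.15). In the nuclear-labelled libraries the heavy-strand mRNAs summed to 32232 and 25791 CPM with sgDDX3 and 37676 and 34097 CPM with sgGal4. The sums with sgDDX3 were thus lower without overlap, although no mRNA passed. There 5 of 28 members were called, beside 30.6% of all genes (14.1% lower), and all were lower heavy-strand tRNAs. MT-TI had 3.65 and 2.44 CPM with sgDDX3 and 9.44 and 7.00 CPM with sgGal4 (-1.50 ± 0.29, adjusted p = 0.00018), and MT-TT had 2.90 and 2.67 against 6.69 and 5.92 CPM (-1.19 ± 0.31, adjusted p = 0.0038). MT-TS2 (-3.15 ± 0.99), MT-TV (-1.87 ± 0.61) and MT-TH (-1.62 ± 0.51) were the others. MT-TS2 lost its call without any 1 of the 4 libraries and MT-TV without any but sgGal4 replicate 2, and both lost theirs with DESeq2. Without sgGal4 nuclear-labelled replicate 1 there was 1 call and without sgDDX3 nuclear-labelled replicate 2 there were 2. The ratio was called for 0 of 30 members by edgeR, with 5 at an unadjusted p under 0.05, 0 by DESeq2 and 1 without the low-count filter, beside 2.64% of all genes. It was called for 1 without any of sgDDX3 nuclear-labelled replicate 1, sgGal4 cytoplasmic-labelled replicate 1 and sgGal4 nuclear-labelled replicate 1. The 3 knockdowns were compared with the same sgGal4 libraries.

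**Figure D4:**
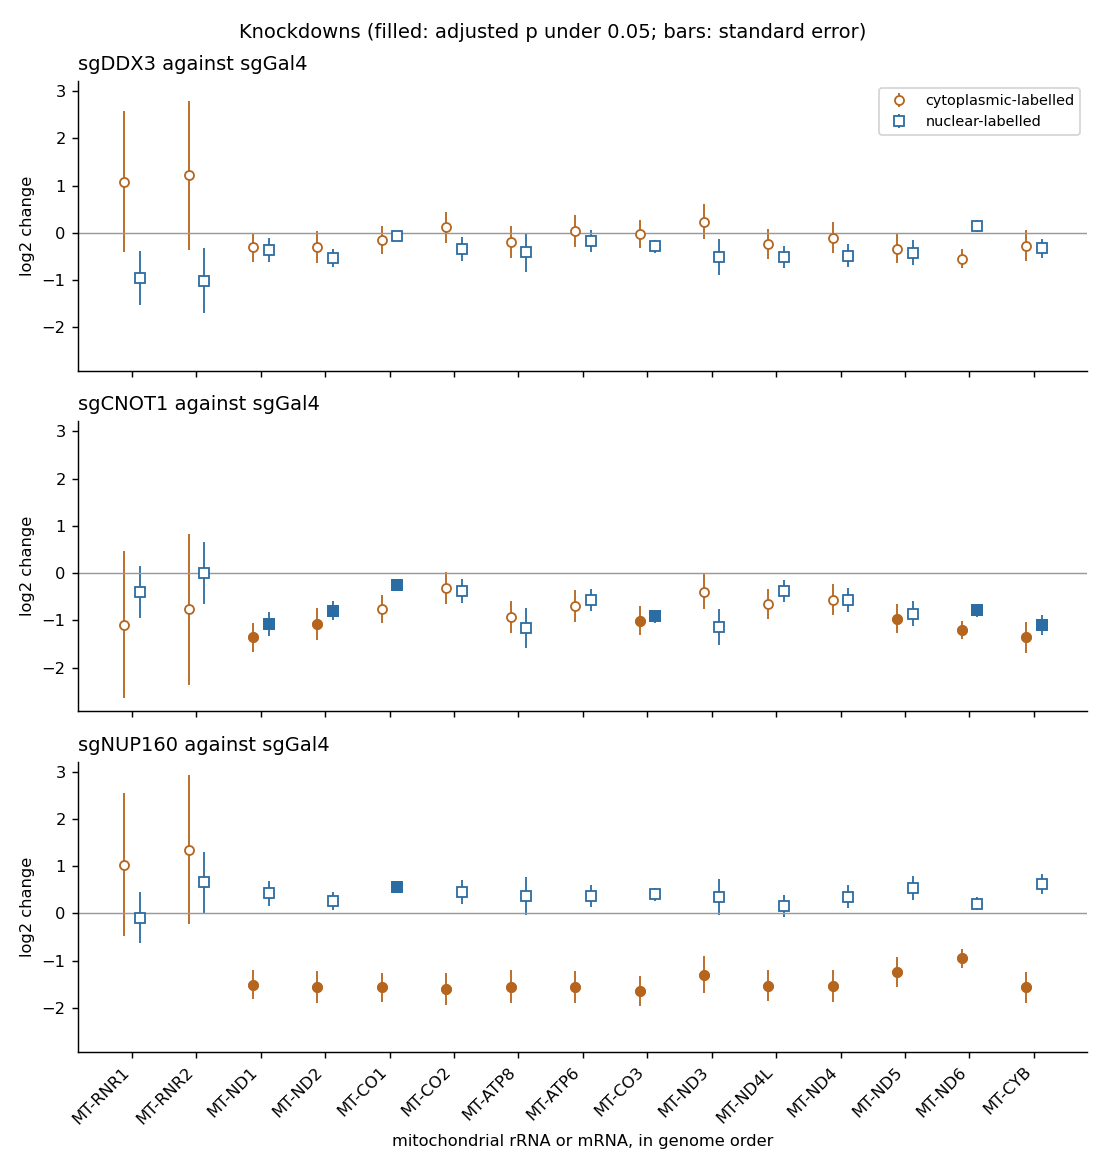
Log2 change against sgGal4 of both rRNAs and 13 mRNAs in genome order for 3 knockdowns, n = 2 libraries per group, with circles for cytoplasmic-labelled and squares for nuclear-labelled libraries; bars are standard errors and filled points have an adjusted p under 0.05. All 13 mRNAs are filled and below 0 for sgNUP160 in the cytoplasmic-labelled libraries, and no point is filled for sgDDX3.

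Among cells without a transgene, the members called in noTG against uninfected cells were all higher in cytoplasmic-labelled and all lower in nuclear-labelled libraries. In the cytoplasmic-labelled libraries MT-ND6 had 2022 and 2851 CPM in noTG and 780 and 1156 CPM in uninfected cells (1.43 ± 0.31, adjusted p = 0.0097). The heavy-strand mRNA sum of noTG was 71739 CPM in replicate 1 and 34937 CPM in replicate 2, and that of uninfected cells 30765 and 39383 CPM, so the groups overlapped. MT-TI (2.01 ± 0.27), MT-TY (1.39 ± 0.41), MT-TT (1.34 ± 0.37), MT-ND3 (1.27 ± 0.36) and MT-ND1 (1.22 ± 0.35) were among 9 of 28 members called, all higher, beside 26.1% of all genes (14.3% higher). In the nuclear-labelled libraries 6 of 28 were called, all lower, beside 38.8% of all genes (19.7% lower): MT-RNR1 (-1.02 ± 0.30), MT-RNR2 (-0.97 ± 0.31), MT-CO1 (-0.78 ± 0.20), MT-ND4 (-0.70 ± 0.19), MT-CO3 (-0.66 ± 0.18) and MT-CO2. MT-ND6 there had 114 and 120 CPM in noTG and 84.9 and 75.3 CPM in uninfected cells (0.44 ± 0.16, adjusted p = 0.051). The ratio of fractions fell for MT-TI (-1.79 ± 0.39), MT-TT (-1.59 ± 0.45), MT-CO2 (-1.43 ± 0.44) and MT-ND1 (-1.29 ± 0.39), 4 of 30 members, beside 11% of all genes (5% downward). The share of MT-ND1 among the heavy-strand mRNAs set uninfected cells apart from WT and the mutants as well as from noTG (given below). Its part in the MT-ND1 calls was not tested.

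Single libraries weighed on these counts. The 9 cytoplasmic-labelled calls became 3 without uninfected replicate 1, 4 without noTG replicate 1 and 14 without noTG replicate 2. The 6 nuclear-labelled calls became 1 without uninfected replicate 1 and 2 without noTG replicate 1. The 4 ratio calls became 15 without noTG cytoplasmic-labelled replicate 2, 2 without noTG cytoplasmic-labelled replicate 1 or nuclear-labelled replicate 2, and 1 without replicate 1 of uninfected in either fraction or noTG nuclear-labelled replicate 1.

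Against DDX3 WT, the noTG cells had more mitochondrial mRNA in the nuclear-labelled libraries. The heavy-strand sum was 33403 and 41389 CPM in noTG and 20476 and 21597 CPM in WT, and all 12 heavy-strand mRNAs were higher (median 0.82; MT-CYB 1.02 ± 0.19, MT-CO1 0.97 ± 0.20, MT-CO2 0.89 ± 0.15). Both rRNAs (MT-RNR1 1.78 ± 0.31, MT-RNR2 1.76 ± 0.32), MT-TF (1.54 ± 0.43), MT-TT (1.01 ± 0.28) and MT-TI (1.01 ± 0.29) also rose. In all 18 of 28 members were higher and none lower, beside 18% of all genes called (8.17% higher). MT-ND6 had 114 and 120 CPM against 93.2 and 93.7 CPM (0.35 ± 0.16, adjusted p = 0.17). The count was 7 or 11 without WT replicate 1 or 2 and 8 without noTG replicate 2. In the cytoplasmic-labelled libraries only tRNAs passed, MT-TY (1.31 ± 0.41), MT-TA (alanine, 1.22 ± 0.36), MT-TI (1.16 ± 0.25) and MT-TP, 4 of 28 members, all higher, beside 8.39% of all genes (3.81% higher). That count was 0 or 1 without WT replicate 1 or 2 and 2 without noTG replicate 1.

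Among WT and the 6 mutants, the nuclear-labelled level of the heavy-strand mRNAs was lowest in R376C and WT and highest in T532M. The sums were 19230 CPM in the single R376C library and 20476 and 21597 CPM in WT. They were 34053 and 29329 CPM in G325E, 36849 and 35241 CPM in R326H, 33180 and 42118 CPM in R351W and 43964 and 42497 CPM in R534S. T532M had 63857 and 49533 CPM, and uninfected cells, which carry no transgene, had 53094 and 51004 CPM. Neighbours in this order such as R326H and R351W overlapped, whereas WT lay below both libraries of every mutant but R376C. An F test over WT and the 6 mutants called 22 of 28 members, all 12 heavy-strand mRNAs and both rRNAs among them, beside 39.1% of all genes.

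Each mutant was set against the same WT libraries, so the mutants' changes share their control. Of the 12 heavy-strand mRNAs, 6 were higher than WT in G325E, 10 in R326H, 11 in R351W and 12 in R534S and T532M, with median changes of 0.57, 0.73, 0.80, 1.01 and 1.40. The shares of all genes called in these comparisons were 17.2%, 17.3%, 14.9%, 20.5% and 35.4%, in this order, and those called higher were 8.4%, 8.13%, 7.21%, 9.08% and 15.7%. R376C, with 1 library and a spread assumed to be that of the other groups, had 0 of 28 members called by edgeR (3 at an unadjusted p under 0.05), beside 2.99% of all genes, and a heavy-strand mRNA median of -0.12. T532M had the widest change. In it MT-CYB rose by 1.82 ± 0.19 and MT-CO1 by 1.78 ± 0.20, MT-RNR2 by 2.50 ± 0.33, and MT-ND6 by 1.08 ± 0.15 (170 and 206 against 93.2 and 93.7 CPM, adjusted p = 0.00026). Its tRNAs MT-TF (7.84 and 7.03 CPM against 1.66 and 0.589 CPM; 2.88 ± 0.39) and MT-TT (16.2 and 11.5 against 3.10 and 2.61 CPM; 2.40 ± 0.26, adjusted p = 1.5e-12) stood well above WT. MT-TT was also higher in R534S (1.76 ± 0.26), G325E (1.32 ± 0.27), R351W (1.23 ± 0.27) and R326H (1.09 ± 0.28). MT-ND6 was not called in any other mutant.

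The cytoplasmic-labelled libraries gave no call for any heavy-strand mRNA in any of the 6 mutants against WT by edgeR, with 3 at an unadjusted p under 0.05 in T532M and 0 in each of the others. The F test called 5 of 28 members there, beside 11.4% of all genes: MT-RNR1, MT-RNR2, MT-TF, MT-TA and MT-TP. Both rRNAs were lowest in G325E, where MT-RNR1 had 132 and 121 CPM against 1282 and 7960 CPM in WT (-5.23 ± 1.00, adjusted p = 0.019) and MT-RNR2 290 and 193 against 2504 and 12838 CPM (-5.03 ± 0.92). The WT replicates differ several-fold in these rRNAs, and what depletion left was not measured apart from the level. MT-TF was lower than in WT in G325E (-1.63 ± 0.35), R534S (-1.19 ± 0.32) and T532M (-1.01 ± 0.30). Calls over all members numbered 4 in G325E (1 higher, 3 lower), beside 6.16% of all genes (2.29% higher, 3.88% lower). R534S had 3 (2 higher, 1 lower), beside 7.46% (3.2% higher, 4.26% lower), and T532M 1, lower, beside 14.6% (8.01% lower). In R326H, R351W and R376C there were 0 by edgeR, with 1, 3 and 3 at an unadjusted p under 0.05, beside 5.21%, 5.59% and 0.893% of all genes. The F test count was 1 to 3 without any 1 of 8 libraries: both replicates of G325E, R534S and T532M and replicate 1 of R351W and WT.

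**Figure D5:**
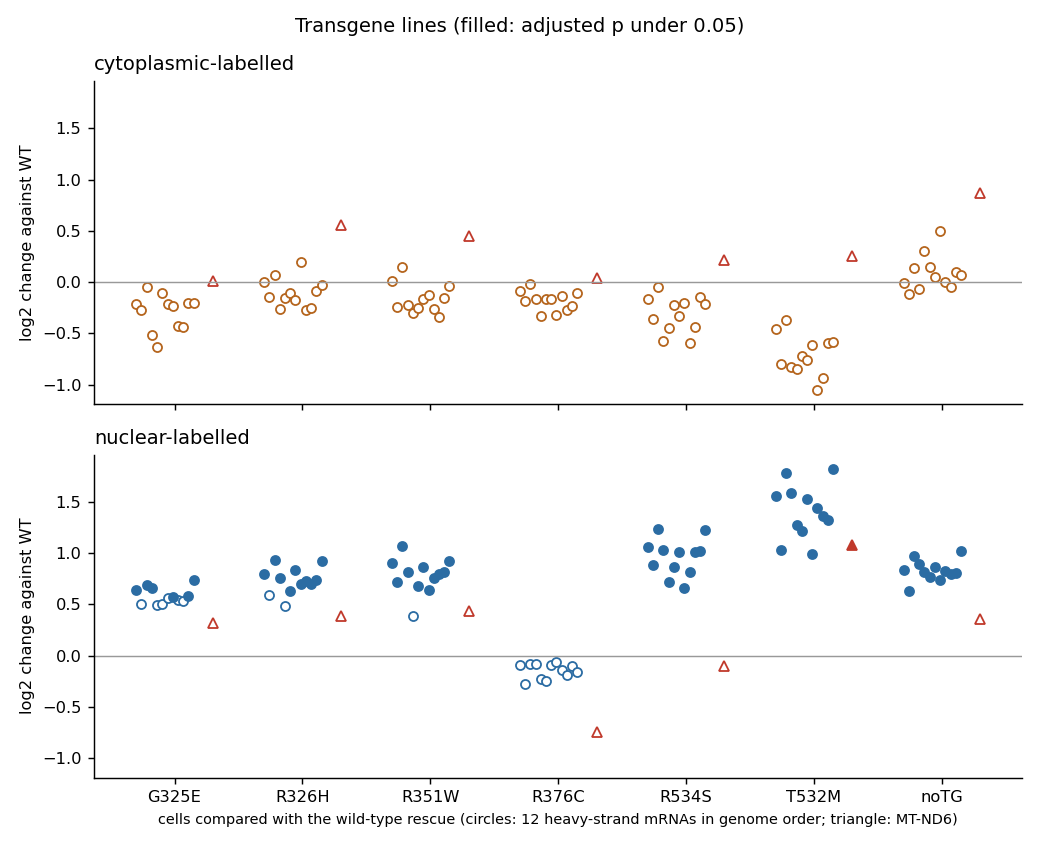
Log2 change against DDX3 WT of the 12 heavy-strand mRNAs (circles, genome order) and MT-ND6 (triangle) in 6 mutants and noTG cells, for cytoplasmic-labelled (top) and nuclear-labelled libraries (bottom), n = 2 libraries per group and 1 for R376C; filled points have an adjusted p under 0.05. Filled points appear only in the nuclear-labelled libraries, with T532M highest and none in R376C.

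With R376C nuclear-labelled replicate 2 in the fits, the nuclear-labelled counts in the transgene set dropped from 22 to 2 for the F test, from 18 to 0 for noTG against WT and from 6 to 0 for noTG against uninfected cells, and the ratio count for the last from 4 to 0. That library had 883 CPM of MT-ND6, 18.3% antisense reads over the heavy-strand mRNAs and 3.74 CPM of rRNA. The first 2 values lie outside the range of the nuclear-labelled libraries and inside that of the cytoplasmic-labelled ones.

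The share of MT-ND1 among the heavy-strand mRNAs separated the uninfected cells from the rest of their set, a comparison chosen after the values were seen and given without a test. MT-ND1 was 9.13% to 11.1% of the summed CPM of the 12 heavy-strand mRNAs in the 15 cytoplasmic-labelled libraries of noTG, WT and the mutants, and 6.37% and 6.62% in uninfected cells. The guide set had 4.31% to 6.52%. In nuclear-labelled libraries the shares were 8.04% to 8.75%, 5.98% in both uninfected libraries and 3.52% to 5.32%. For MT-ND2 the cytoplasmic-labelled shares were 6.03% to 7.18%, 4.88% in both and 3.72% to 4.95%, in the same order of cells. In nuclear-labelled libraries the uninfected shares of MT-ND2 (5.34% and 5.41%) lay inside the 5.10% to 7.29% of noTG, WT and the mutants, so it did not separate them there. MT-CO1 in cytoplasmic-labelled libraries had 29.8% to 34.3% in the guide set, 28.9% and 27.2% in uninfected cells and 21.5% to 27.5% in the others, so the last 2 groups overlapped. The nuclear copy MTND2P28, which can take reads of MT-ND2, had 9.27 to 42.8, 19.8 to 22.6 and 14.8 to 67.8 CPM in the cytoplasmic-labelled libraries of the guide set, uninfected cells and the others; its part in the result was not tested.

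A list of 53 nuclear genes that transcribe, process, modify and degrade mitochondrial RNA or copy its DNA is given for comparison, with the share of all genes called beside each count. In the nuclear-labelled libraries of sgCNOT1, 13 of 52 rose and 11 fell (median 0.04), near the 49% of all genes called. The helicase gene SUPV3L1 of the mitochondrial degradosome (0.77 ± 0.12), the RNA polymerase gene POLRMT (0.76 ± 0.11) and TBRG4 (0.75 ± 0.11) rose most, and the rRNA methyltransferase gene MRM1 (-1.12 ± 0.22) fell most. In its cytoplasmic-labelled libraries 1 of 52 rose and 7 fell (median -0.26; 21.8% of all genes called), among them the transcription factor gene TFAM (-1.07 ± 0.21), TFB1M (-0.94 ± 0.23) and PNPT1 (-0.89 ± 0.19), the nuclease of the degradosome. With sgNUP160, 1 rose and 5 fell in the cytoplasmic-labelled libraries (15.9% of all genes called), PNPT1 (-0.67 ± 0.19) and FASTKD1 (-0.69 ± 0.19) among the falls, and 4 rose and 4 fell in the nuclear-labelled ones (14.6%). With sgDDX3, 3 rose and 8 fell in the nuclear-labelled libraries (30.6%), with MTO1, a tRNA-modifying enzyme gene (-0.66 ± 0.13), and MGME1 (-0.64 ± 0.12) lowest.

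In T532M against WT, 6 of 53 list genes rose and 14 fell in the nuclear-labelled libraries (median -0.13), close to the 35.4% of all genes called. The replicative polymerase subunit gene POLG2 (-0.91 ± 0.16), TFAM (-0.70 ± 0.08) and the pseudouridine synthase gene RPUSD4 (-0.66 ± 0.09) fell most, while SLIRP, which stabilises mitochondrial mRNAs, rose (0.48 ± 0.11). RPUSD4 was lower than in WT in all 6 mutants, by 0.66 to 0.45 on the log2 scale. It was also lower in noTG against the same WT libraries (-0.47 ± 0.09). For noTG against uninfected cells 17 rose and 10 fell in the nuclear-labelled libraries (median 0.07; 38.8% of all genes called), with MRM1 (0.82 ± 0.13) highest and RPUSD4 (-0.72 ± 0.09) lowest. Between the labelled fractions of sgGal4, HSD17B10, a subunit of mitochondrial RNase P, was higher in the nuclear-labelled libraries (2.19 ± 0.20) and POLG2 lower (-1.81 ± 0.21), within 19 higher and 13 lower of 53, beside 64.7% of all genes called.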

How the data were processed

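STAR 2.7.5a and the GRCh38 build are named in the submitters' processing notes. Which gene annotation was counted was not stated in the sources used. The files the authors deposited hold, in STAR's layout, raw read counts per gene for both strands together and for each strand, without normalization by the authors. Sense counts were used (the strand the directional kit yields), and opposite-strand counts for antisense. Reads not assigned to a gene (25.1% to 74.0% of a library) were left out. They were unmapped, mapped to several places, lay outside genes on the counted strand or were ambiguous between genes. Those outside genes were 50.4% to 69.2% of uniquely mapped reads in cytoplasmic-labelled and 5.14% to 10.5% in nuclear-labelled libraries.

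In R 4.3.3, edgeR 4.0.16 robust quasi-likelihood fits with TMM scaling, the default expression filter and one coefficient per group were made on all genes, for each set and labelled fraction and for both fractions together (ratio and fraction tests). Antisense counts used the sense library sizes. Calls had a Benjamini-Hochberg adjusted p under 0.05 over all genes; a standard error is the size of the log2 change divided by the root of F. The cytoplasmic-labelled fit of the guide set was also run on simulated counts with 200 changed genes. These were drawn from genes without low counts, so that run does not bear on the low-count tRNAs. Tested genes numbered 14347 to 18378 (sense), of which 27 to 30 were members; the other members had too few counts. Members, gene lists, comparisons and alternatives (DESeq2 1.42.0, RLE scaling, scaling without members, no filter, replicate block, unstranded counts, leaving out libraries) were chosen with earlier results of these data known. In each comparison, the 3 largest rises and falls among called mRNAs, rRNAs and tRNAs, and MT-ND6, were named; other names were chosen after their values were seen. Replicate numbers were not used to pair libraries in the main fits.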

Additional observations from a re-analysis of the deposited data

Results flagged for a closer look

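Several members changed by different amounts in the labelled fractions by the test of the difference itself. With sgNUP160, 8 members had a changed nuclear-over-cytoplasmic ratio, among them MT-CYB (2.26), MT-CO1 (2.21), MT-CO3 (2.12), MT-ND6 (1.25), MT-TW (2.45) and MT-TI (1.64), all on the log2 scale. With sgCNOT1 there were 2, of which MT-TF fell by 3.30. Between noTG and uninfected cells there were 4: MT-TI (-1.79), MT-TT (-1.59), MT-CO2 (-1.43) and MT-ND1 (-1.29).

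R376C nuclear-labelled replicate 2, left out of the main fits, had signals above the nuclear-labelled range of the control cells: 883 CPM of MT-ND6 and 18.3% antisense reads over the heavy-strand mRNAs.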

How the results depend on the processing

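Counts of members called were recomputed under each alternative. DESeq2 gave 5 (sgCNOT1 cytoplasmic-labelled), 3 (sgDDX3 nuclear-labelled), 1 (sgCNOT1 ratio), 2 (noTG against WT cytoplasmic-labelled) and 11 (noTG against uninfected ratio). Without the low-count filter they were 3 and 9 (sgDDX3 cytoplasmic- and nuclear-labelled), 1 (sgDDX3 ratio), 7 and 4 (sgNUP160 cytoplasmic- and nuclear-labelled), 1 (sgCNOT1 ratio) and 2 (noTG against uninfected ratio). RLE scaling gave 4 for the sgNUP160 ratio. Unstranded counts gave 3 (sgDDX3 nuclear-labelled), 14 (sgNUP160 ratio), 5 and 10 (noTG against uninfected cytoplasmic-labelled and ratio), 0 (noTG against WT cytoplasmic-labelled) and 3 (F test cytoplasmic-labelled), and turned MT-TP in R534S (-0.49, cytoplasmic-labelled) and MT-ND6 in R534S (1.02, nuclear-labelled), since they add the other strand's reads. With R376C nuclear-labelled replicate 2 the nuclear-labelled counts were 0 (noTG against uninfected), 0 (noTG against WT) and 2 (F test), and the ratio count was 0. The replicate block gave 2 (sgDDX3 cytoplasmic-labelled), 1 (sgDDX3 ratio), 3 (F test cytoplasmic-labelled) and 2 (noTG against uninfected ratio), and moved no other count by over 1.5 times. Most same-numbered libraries did not deviate together. Correlations were over 0.1 in 2 of 6 pairs of groups for cytoplasmic-labelled (highest 0.227) and 0 of 6 for nuclear-labelled libraries of the guide set. In the transgene set this held for 0 of 28 pairs in either fraction. With both fractions together it was 1 of 28 in the guide set and 0 of 120 in the transgene set. The main fits therefore left the numbers unpaired, although low correlations cannot show that same-numbered libraries were prepared apart. The cause of the moved counts was not tested, except where a setting removes or adds counts by construction.

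Leaving out each library gave 0 to 0 (sgDDX3), 3 to 20 (sgCNOT1) and 0 to 14 (sgNUP160) in cytoplasmic-labelled, 1 to 6, 7 to 15 and 1 to 6 in nuclear-labelled and 0 to 1, 1 to 16 and 3 to 13 in ratio comparisons. Fractions gave 11 to 14 (sgGal4) and 19 to 23 (uninfected), and antisense fractions 15 to 19 and 17 to 19. For noTG against uninfected the ranges were 3 to 14, 1 to 7 and 1 to 15 (ratio), for noTG against WT 0 to 4 and 7 to 18, and for the F test 1 to 5 and 21 to 23. A lone library was assumed to vary like the other groups. Low depth limits the tRNAs, most of which have under 100 counts a library.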
